A study of Mus musculus with 88 samples.

Results

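The 49 genes described here are cell division cycle messengers, taken as a list chosen with earlier results of these data known. They comprise 24 genes of S phase, when DNA is copied, and 25 genes of G2 and M phase, when the copied chromosomes are checked, condensed and divided. All 49 are listed in each of the 4 tables used, which hold 15830 genes for single embryoid body cells, 53697 for directed mesoderm differentiation, 54393 for directed endoderm differentiation and 26007 for bulk embryoid bodies, and all 49 passed the filters on low counts in the bulk fits. The study compared mouse embryonic stem cells (ESCs) that lack a part of Polycomb repressive complex 2 (PRC2), the enzyme complex that methylates lysine 27 of histone H3, while they left pluripotency.

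Single cells came from a series of embryoid bodies (EBs), aggregates that differentiate without added inducers. The cells were wild-type (WT) E14 or null for Mtf2, Jarid2 or Eed, at days 0, 4, 7 and 10. Each genotype and day had 1 library of sorted wells. The paper calls the day 0 cells undifferentiated and does not say whether they were aggregates. Differences from day 0 may thus also be a change of culture format. The Mtf2 null cells carry a gene trap in both alleles. MTF2 and JARID2 belong to different forms of PRC2, and EED to its core. Bulk EBs came from lines labelled null for these 3 genes and from their matched WT lines, labelled Pcl1-3 WT, JM8 and J1, at days 0, 2, 4 and 7, with 1 sample for each line and day; the column names mark the day 0 samples as mono and the later ones as eb, so the step from day 0 to 2 may also be a change of culture format. In the directed series, WT E14, Mtf2 null and Jarid2 null monolayers were sampled undifferentiated and after 5, 24 and 48 h of induction, with 2 libraries for each genotype and time that the authors call technical duplicates, so p-values there measure the spread between libraries. Undifferentiated cells were grown in serum with LIF. Activin A, CHIR99021 and FGF2 induced both directed series for the first 24 h, with BMP4 added for mesoderm. Activin A with DM3189 (endoderm), or A-83-01 with BMP4 (mesoderm), followed. The null cells of the single-cell and directed experiments were compared with E14 although their parent lines are others, so genotype and line background cannot be told apart there.

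Depth and labels were checked first. Single-cell libraries kept 202 to 347 cells with medians of 4997 to 10603 unique molecular identifiers (UMIs, each counting 1 captured mRNA molecule; the well barcodes recur between libraries, but no cell name does), directed libraries held 9111880 to 16898264 counts, and bulk EB columns held 3005707 to 22944105 reads. In single cells each targeted gene was below WT of the same day in its own null (Mtf2 53.7 to 61.1 counts scaled to a common library total, CPM, against 365 to 793 in WT; Jarid2 115 to 185 against 215 to 594; Eed 1.33 to 11.5 against 115 to 478), although at day 7 Jarid2 was as low in Mtf2 null (184 CPM) as in Jarid2 null (185). In the directed series Mtf2 stood at 26.4 to 35.1 CPM in Mtf2 null against 223 to 549 in WT, but Jarid2 did not separate the libraries labelled Jarid2 null from WT at every time. Jarid2 was lower in both of them undifferentiated and at 24 h in each series, was 601 and 602 against 598 and 623 CPM in WT at 5 h of the mesoderm series, and was higher at 48 h, with 460 and 499 against 447 and 420 CPM in the mesoderm series and 386 and 399 against 355 and 323 in the endoderm series. Only gene totals were used, so the deleted part was not checked, and Jarid2 null is a label there. For Jarid2 null at 48 h of the endoderm series the column names give another hour than the sample titles, which were followed. In bulk EBs the line labelled Mtf2 null had less Mtf2 than Pcl1-3 WT each day (178 to 328 against 316 to 439 CPM). This gap was smaller than that of the directed series. At day 0 Mtf2 was lowest in the line labelled Jarid2 null (135 CPM, against 287 in JM8 and 328 in the line labelled Mtf2 null). Jarid2 in the line labelled Jarid2 null (229 to 628 against 255 to 516 CPM) overlapped JM8. Eed in the line labelled Eed null (65 to 212 against 53.1 to 233 CPM) overlapped J1. The bulk EB lines are therefore called by their labels below. The marker genes of the labelled fates stayed low in WT directed cells at 48 h: the 4 endoderm markers (Foxa2, Sox17, Cxcr4, Gsc) summed to 0.940 and 0.991 CPM in the endoderm series, against 46.5 and 54.5 in Mtf2 null, and the 5 pluripotency markers (Pou5f1, Sox2, Nanog, Esrrb, Zfp42) still summed to 1211 to 1621 CPM in WT.

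The S phase list follows the making of a replication fork. Mcm2 to Mcm7 are subunits of the helicase that unwinds DNA, Cdc6 loads it, and Gins2 and Cdc45 activate it. Pola1 starts each new strand, Pcna is the sliding clamp, Rfc2 helps to load it, and Rpa2 covers single-stranded DNA. Rrm1, Rrm2 and Tyms make deoxynucleotides, and Chaf1b, Nasp and Slbp serve the histones packed onto new DNA. The G2/M list holds Cdk1 and its cyclins (Ccna2, Ccnb1, Ccnb2), the mitotic kinases Plk1, Aurka and Aurkb, kinetochore and checkpoint proteins (Bub1, Bub1b, Cenpa, Cenpe, Cenpf), Cdc20 and Ube2c, which act with the anaphase-promoting complex, spindle and cytokinesis proteins (Tpx2, Kif11, Kif20b, Kif23, Nusap1, Hmmr, Tacc3, Anln), and the chromosome proteins Top2a, Birc5 and Mki67. In textbook terms E2F proteins drive the S genes, and the MuvB complex with B-MYB and FOXM1 drives the G2/M genes through promoter elements named CCAAT boxes and cell cycle homology regions (CHR, letters TTTGAA). Mouse ESCs cycle fast with a short G1 phase, so that many of their cells are in S phase at any time.

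The promoters of the lists differed in these letters. RefSeq promoter windows (GRCm38.p6, 250 bases before to 50 after the start) matched 43 of the 49 genes, 21 of S and 22 of G2/M, and were set against all 27025 windows. TTTGAA on either strand stood in 16 of 22 G2/M windows and 4 of 21 S windows, against 18.1% of all windows. CCAAT on either strand stood in 17 of 22 G2/M windows and 15 of 21 S windows, against 37.9% of all. Exact E2F forms (TTTCGCGC, TTTGGCGC, TTTCCCGC or TTTGCCGC with their reverse complements) stood in 9 of 21 S windows and 1 of 22 G2/M windows, against 2.32% of all. CCAAT and TTTGAA together stood in 14 of 22 G2/M windows, 3 of 21 S windows and 7.12% of all. A match is a run of letters and not a measured binding site, and no binding was measured here. The windows of 3 S genes and 3 G2/M genes are printed to show these elements, because the text returns to these genes in each experiment. Capitals mark matches to any of these 3 elements on either strand, and each window is written in the direction of transcription. They lie at chr11:98907901-98908200 (plus strand, Cdc6), chr6:88898731-88899030 (minus, Mcm2), chr12:24708004-24708303 (plus, Rrm2), chr7:135716330-135716629 (minus, Mki67), chr11:99024140-99024439 (minus, Top2a) and chr10:69352863-69353162 (minus, Cdk1).
Cdc6: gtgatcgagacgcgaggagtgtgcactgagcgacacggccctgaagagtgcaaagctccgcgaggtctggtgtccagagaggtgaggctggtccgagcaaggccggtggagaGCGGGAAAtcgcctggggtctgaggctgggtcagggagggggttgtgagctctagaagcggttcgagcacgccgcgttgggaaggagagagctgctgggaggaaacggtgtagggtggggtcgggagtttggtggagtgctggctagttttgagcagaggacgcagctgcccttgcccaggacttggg
Mcm2: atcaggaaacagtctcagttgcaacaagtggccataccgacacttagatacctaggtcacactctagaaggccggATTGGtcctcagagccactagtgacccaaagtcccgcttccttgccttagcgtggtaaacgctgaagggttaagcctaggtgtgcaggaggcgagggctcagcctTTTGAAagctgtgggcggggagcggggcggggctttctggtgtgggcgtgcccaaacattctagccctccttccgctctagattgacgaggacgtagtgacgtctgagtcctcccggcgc
Rrm2: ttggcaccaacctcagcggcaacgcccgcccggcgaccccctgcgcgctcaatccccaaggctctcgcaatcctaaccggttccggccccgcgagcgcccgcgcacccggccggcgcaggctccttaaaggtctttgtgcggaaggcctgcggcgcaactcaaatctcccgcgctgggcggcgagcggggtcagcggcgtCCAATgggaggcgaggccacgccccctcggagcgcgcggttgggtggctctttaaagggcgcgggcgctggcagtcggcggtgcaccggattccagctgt
Mki67: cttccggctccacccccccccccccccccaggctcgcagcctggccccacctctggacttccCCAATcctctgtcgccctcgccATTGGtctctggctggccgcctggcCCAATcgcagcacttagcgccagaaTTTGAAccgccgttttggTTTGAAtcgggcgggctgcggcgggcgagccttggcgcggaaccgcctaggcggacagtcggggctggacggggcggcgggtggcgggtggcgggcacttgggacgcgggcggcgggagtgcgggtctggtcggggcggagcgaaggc
Top2a: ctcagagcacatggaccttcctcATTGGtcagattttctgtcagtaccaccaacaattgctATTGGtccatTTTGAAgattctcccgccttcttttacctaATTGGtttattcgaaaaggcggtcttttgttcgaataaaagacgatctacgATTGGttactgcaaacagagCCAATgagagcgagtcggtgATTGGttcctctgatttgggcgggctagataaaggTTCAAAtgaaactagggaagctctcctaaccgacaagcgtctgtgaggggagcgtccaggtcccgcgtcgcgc
Cdk1: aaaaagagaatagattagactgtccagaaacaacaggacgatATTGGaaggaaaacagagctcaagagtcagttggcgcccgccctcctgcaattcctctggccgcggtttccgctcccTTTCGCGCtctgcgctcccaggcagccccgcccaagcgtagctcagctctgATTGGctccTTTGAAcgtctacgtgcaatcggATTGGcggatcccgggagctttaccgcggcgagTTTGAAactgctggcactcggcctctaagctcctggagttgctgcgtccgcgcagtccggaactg
Cdc6 held 1 E2F form 138 bases before the RefSeq start used. Another annotation begins this gene at base 98907801, so the Cdc6 window lies inside that gene. Rrm2 held 1 CCAAT, Mcm2 1 CCAAT and 1 TTTGAA, Mki67 3 CCAAT and 2 TTTGAA, and Top2a 6 CCAAT and 2 TTTGAA. Cdk1, a G2/M gene, held an E2F form beside 3 CCAAT and 2 TTTGAA, and is the G2/M window counted above with an E2F form.

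In single WT cells the S list took 9956 UMI CPM at day 0, 5840 at day 4, 7306 at day 7 and 4144 at day 10, and the G2/M list took 11505, 9222, 8289 and 6257. Both lists were thus highest in undifferentiated WT cells and lowest at day 10, and only the S list was higher at day 7 than at day 4 (95% exact Poisson intervals, which cover counting error only, were 5738 to 5944 and 7191 to 7422). No spread between cultures was measured, so these are values of single libraries without a test. The difference from day 0 may also be a change of culture format. In Mtf2 null cells the S list took 8331, 7098, 6310 and 4761 UMI CPM and the G2/M list 9591, 9707, 8112 and 6549. In Jarid2 null cells the S list took 8591, 7137, 7609 and 6319 and the G2/M list 10491, 10492, 9186 and 8930. In Eed null cells the S list took 7606, 5043, 6956 and 3816 and the G2/M list 11258, 9754, 8388 and 6245. Jarid2 null cells thus had the highest level of both lists at day 10, and Eed null cells the lowest S level at days 0, 4 and 10. Of the 12 null libraries, 5 were above WT of their day for S and 7 for G2/M, or 8 for G2/M with each cell weighted equally or thinned to 2500 UMIs, where Eed null at day 10 went from 0.998 to 1.01 and 1.13 times WT.

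**Figure D1:**
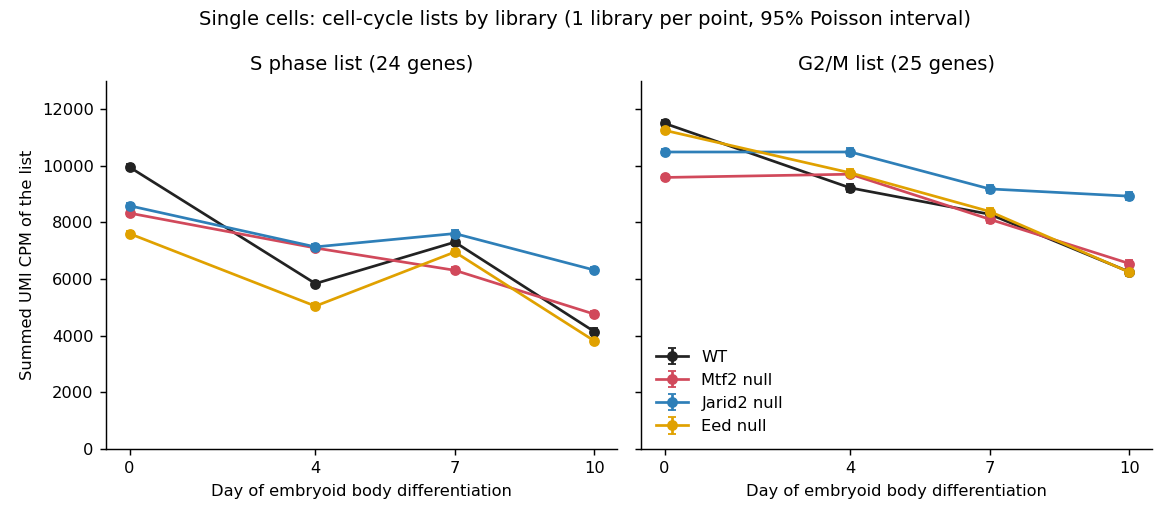
Summed UMI CPM of the S genes and of the G2/M genes (vertical axes) against the day of EB differentiation (horizontal axis), 1 point for each library and 1 line for each genotype, with 95% Poisson intervals for counting error. Both lists are higher at day 0 than at day 10 in every genotype, and the Jarid2 null libraries at day 10 (6319 for S, 8930 for G2/M) lie above the other 3 genotypes.

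The largest distance from WT was that of Jarid2 null cells at day 10, where the S list was 1.52 times (counting interval 1.48 to 1.57) and the G2/M list 1.43 times (1.39 to 1.47) the WT level. Most members shared it, since 23 of 24 S genes and 24 of 25 G2/M genes were above WT, with median ratios of 1.48 and 1.48, against a median of 1.02 over 10789 genes with enough UMIs, of which 52.3% were above WT. Rrm2 was at 435 against 197 UMI CPM, Ung, which removes uracil from DNA, at 122 against 45.1, Ube2c at 541 against 288 and Ccnb1 at 515 against 308. The exceptions were Gins2 (67.4 against 101) and Anln (153 against 193). Marker genes also moved at day 10: the 3 fibroblast markers (Col1a1, Col1a2, Thy1) summed to 948 UMI CPM in WT, 1000 in Eed null, 304 in Mtf2 null and 148 in Jarid2 null, and the 5 pluripotency markers to 370, 229, 315 and 914. Their part in the result was not tested.

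At day 0 the summed lists of the null libraries were below WT. The S list stood at 0.84 times WT in Mtf2 null, 0.86 in Jarid2 null and 0.76 in Eed null, and the G2/M list at 0.83, 0.91 and 0.98. Over all genes with enough UMIs the median ratio was 0.95 in Mtf2 null (43.97% above WT), 0.93 in Jarid2 null (42.1%) and 1.01 in Eed null (50.8%). Over the members the median was 0.90 for S and 0.83 for G2/M in Mtf2 null and 0.90 and 0.93 in Jarid2 null, so the G2/M genes of Jarid2 null were no further below WT than all genes. In Eed null 1 of 24 S genes was above WT, Mcm2 at 749 against 584 UMI CPM, while 8 of 25 G2/M genes were, among them Ccna2 (841 against 559) and Anln (510 against 372). Pcna, the most abundant S gene in UMIs, had 3313 UMI CPM in WT, 2300 in Mtf2 null, 2632 in Jarid2 null and 2160 in Eed null. Gins2 was at 190 in WT, 80.7 in Mtf2 null, 86.6 in Jarid2 null and 152 in Eed null. Cdc20 went the other way, with 668 in Mtf2 null against 495 in WT, 474 in Jarid2 null and 487 in Eed null. At day 4 the direction differed, since 21 of 24 S genes were above WT in Mtf2 null and 21 of 24 in Jarid2 null (list ratios 1.22 and 1.22), while 9 of 24 were in Eed null (0.86). Of 25 G2/M genes 15, 17 and 10 were above WT in the same order, and of all genes 55.7%, 54.5% and 51.3%.

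Single members did not all follow their list over time. Mki67, whose protein coats mitotic chromosomes, had 56.2, 75.6, 107 and 131 UMI CPM in WT from day 0 to day 10, and was higher at day 10 than at day 0 in each genotype (122 against 55.3 in Mtf2 null, 154 against 48.3 in Jarid2 null, 166 against 59.8 in Eed null). Top2a, which untangles DNA for chromosome separation, had 1352, 1274, 1097 and 958 in WT. Cdk1 had 820, 643, 587 and 436, Ccnb1 776, 482, 421 and 308, and Cdc20 495, 245, 241 and 182. These 4 G2/M genes were thus lower at each later day in WT, opposite to Mki67. Among the S genes Mcm2 had 584, 345, 363 and 205 in WT and was higher in Eed null at every day (749, 586, 557 and 305). Rrm2 had 792, 241, 392 and 197 in WT, the dip at day 4 that the S list shows, and Cdc6, with few UMIs, had 38.1, 12.1, 30.6 and 27.9.

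Cells were thinned to 2500 UMIs each, leaving out 492 of 4949 shallower cells, to compare cells of different depth. In WT the median G2/M count per cell was 27 UMIs at day 0 and 8 at day 10, while its 90th percentile was 39 and 33. In Eed null the median was 26 and 7 and the 90th percentile 41 and 45. In Mtf2 null the median was 22 and 11 and the 90th percentile 35 and 38, and in Jarid2 null 25 and 16, and 38 and 39.8. The middle of the distribution was thus lower at day 10 in every genotype, while the 90th percentile was 33 to 45 UMIs at day 10 and 35 to 41 at day 0. For the S genes the 90th percentile was also lower, 35 UMIs at day 0 and 20 at day 10 in WT, 28 and 22 in Mtf2 null, 31 and 26 in Jarid2 null and 27 and 17.5 in Eed null.

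**Figure D2:**
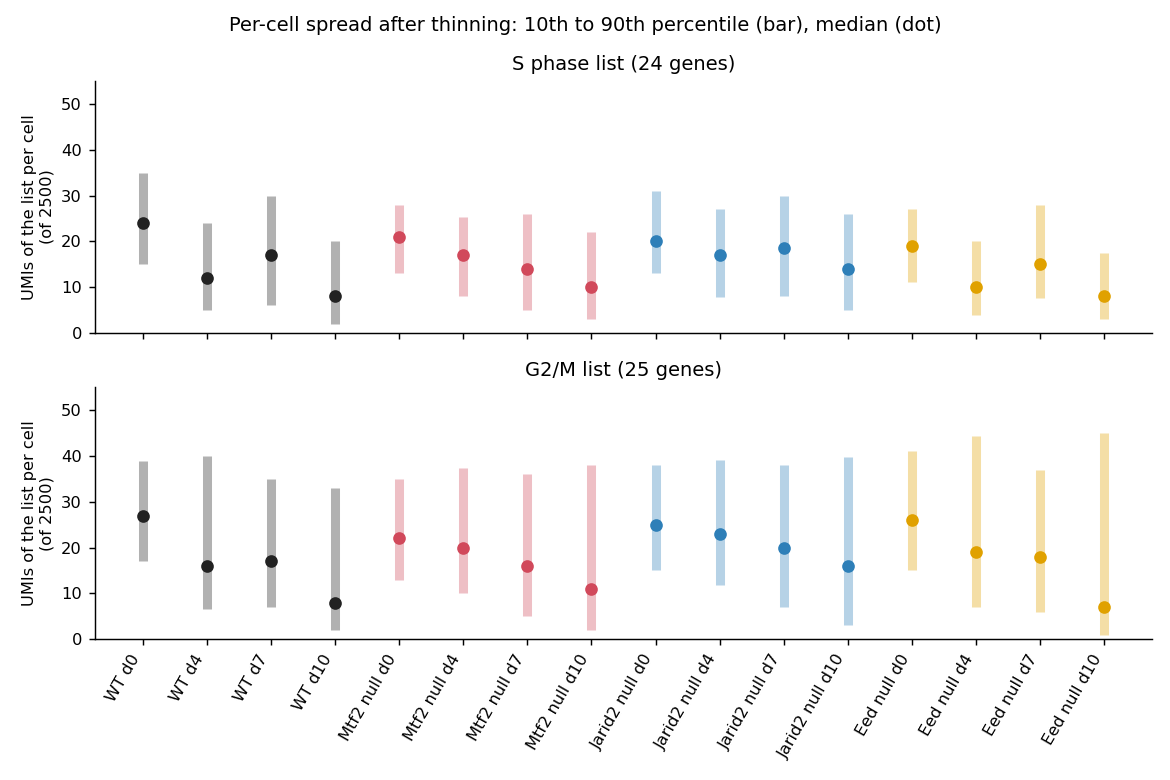
S and G2/M UMIs per cell after thinning each cell to 2500 UMIs (vertical axes) for each genotype and day (horizontal axis), with the 10th percentile, median and 90th percentile over cells. The G2/M median of WT is 27 at day 0 and 8 at day 10, with 90th percentiles of 39 and 33.

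Members also varied together more within late cells. The mean Pearson correlation between pairs of G2/M genes across thinned cells was 0.050 in WT at day 0 and 0.206 at day 10, and 0.068 and 0.311 in Eed null. Between pairs of S genes in WT it was 0.021 and 0.094. The Spearman correlation of the S and G2/M counts of a cell was negative in all 4 day 0 libraries (-0.12 to -0.20) and 0.46 in WT at day 10. These are descriptions over 176 to 338 cells of 1 library each. The cells share their library, and cells with more UMIs before thinning had higher G2/M counts after it (Spearman 0.17 to 0.37), whose part was not tested.

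The 22 clusters of the authors (resolution 2.5) spread over a wider range than the libraries. The S list ran from 3740 UMI CPM in cluster 11 to 10098 in cluster 3, and the G2/M list from 5945 in cluster 21 to 11687 in cluster 17. Cluster 3 is mainly WT (311 of 335 cells), cluster 17 mainly Jarid2 null (100 of 125), cluster 11 mainly Mtf2 null (143 of 240) and cluster 21 mainly Mtf2 null (33 of 47). Members may be among the variable genes that the authors clustered on, which was not checked, so differences between clusters are a description. Cluster 9, with 257 of its 258 cells from Eed null, joined a low S level (4241) to a G2/M level of 9235. Cluster 20 was the only cluster with S (7135) above G2/M (7031), and these counting intervals overlap (6861 to 7417 and 6760 to 7311).

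**Figure D3:**
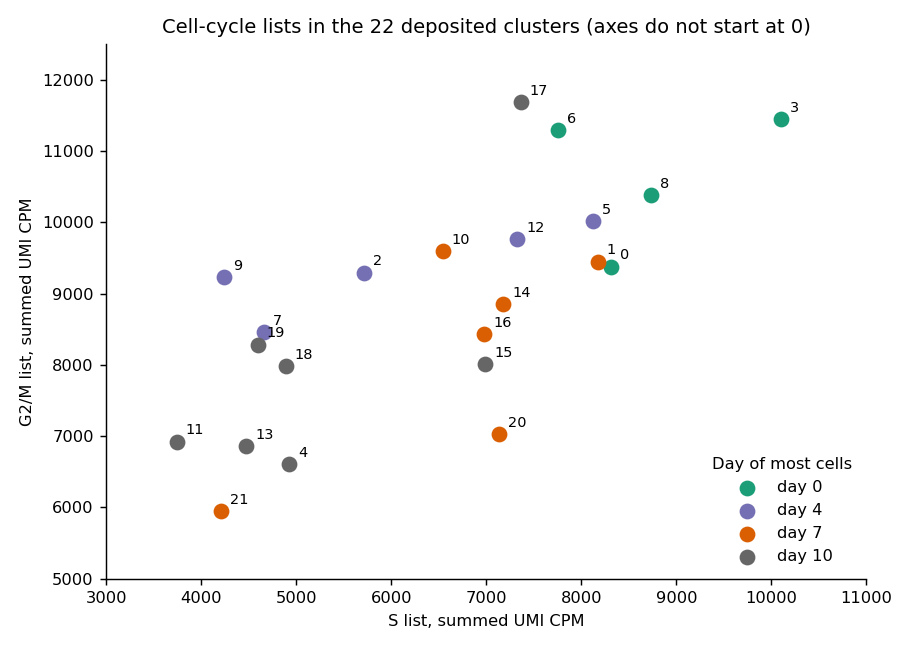
G2/M UMI CPM (vertical axis) against S UMI CPM (horizontal axis), 1 point for each of the 22 clusters, labelled by cluster number. In these counts, which are not thinned, cluster 3 is farthest to the right (10098) and cluster 17 highest (11687). Cluster 9 has a G2/M level of 9235 at an S level of 4241.

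Within 1 cluster the libraries still differed. In cluster 4 at day 10, 90 WT cells had 3166 S and 4280 G2/M UMI CPM, 80 Mtf2 null cells had 4121 and 6778, and 33 Jarid2 null cells had 5697 and 7163. The order of the genotypes is the one of the whole libraries at day 10, of which these cells are a part. The counting intervals for S do not overlap (3015 to 3323, 3952 to 4295 and 5401 to 6004). For G2/M those of Mtf2 null (6560.5 to 7000.6) and Jarid2 null (6831 to 7507) overlap. At day 7 the same cluster had 6465 and 7797 in 32 WT cells and 6297 and 7873 in 79 Mtf2 null cells, whose intervals overlap. The 49 Jarid2 null cells of cluster 17 at day 10 had 7464 and 11639, while the 40 Jarid2 null cells of cluster 11 at that day had 3303 and 5520.

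In undifferentiated monolayer cells the lists differed in direction between Mtf2 null and WT. Of 24 S genes 12 fell and 3 rose, with a median log2 fold change of -0.23, and of 25 G2/M genes 14 rose and 3 fell, with a median of 0.29 (edgeR quasi-likelihood test, Benjamini-Hochberg adjusted p under 0.05, 4 libraries against 4). Over all 17155 genes tested 28.2% were called higher and 25.3% lower, with a median of -0.041. In this comparison many genes moved, and the G2/M count of 14 higher calls of 25 and the S count of 12 lower calls of 24 stand above those shares. Libraries of the same number in the 2 series resembled each other (across the 49 members the difference between replicates 1 and 2 correlated between the series with r = 0.92 in WT, 0.67 in Mtf2 null and 0.64 in Jarid2 null), so the 4 libraries may come from fewer cultures. Over all genes the chi-square per gene between the series had a median of 8.93 in the 6 same-number pairs (5.86 to 22.9). The median was 20.7 in the 6 pairs of other numbers (8.43 to 26.5) and 8.75 between replicates of a group. However, 1 of the 2 same-number pairs of WT differed as much (22.9) as WT libraries of other numbers (22.7 and 26.5). Within the mesoderm series alone 11 S genes fell and 1 rose, and 12 G2/M genes rose and 1 fell. Within the endoderm series 11 S genes fell and 1 rose, and 13 G2/M genes rose and 3 fell. Shares over all genes were not taken for 1 series alone, so these counts are descriptions.

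**Figure D4:**
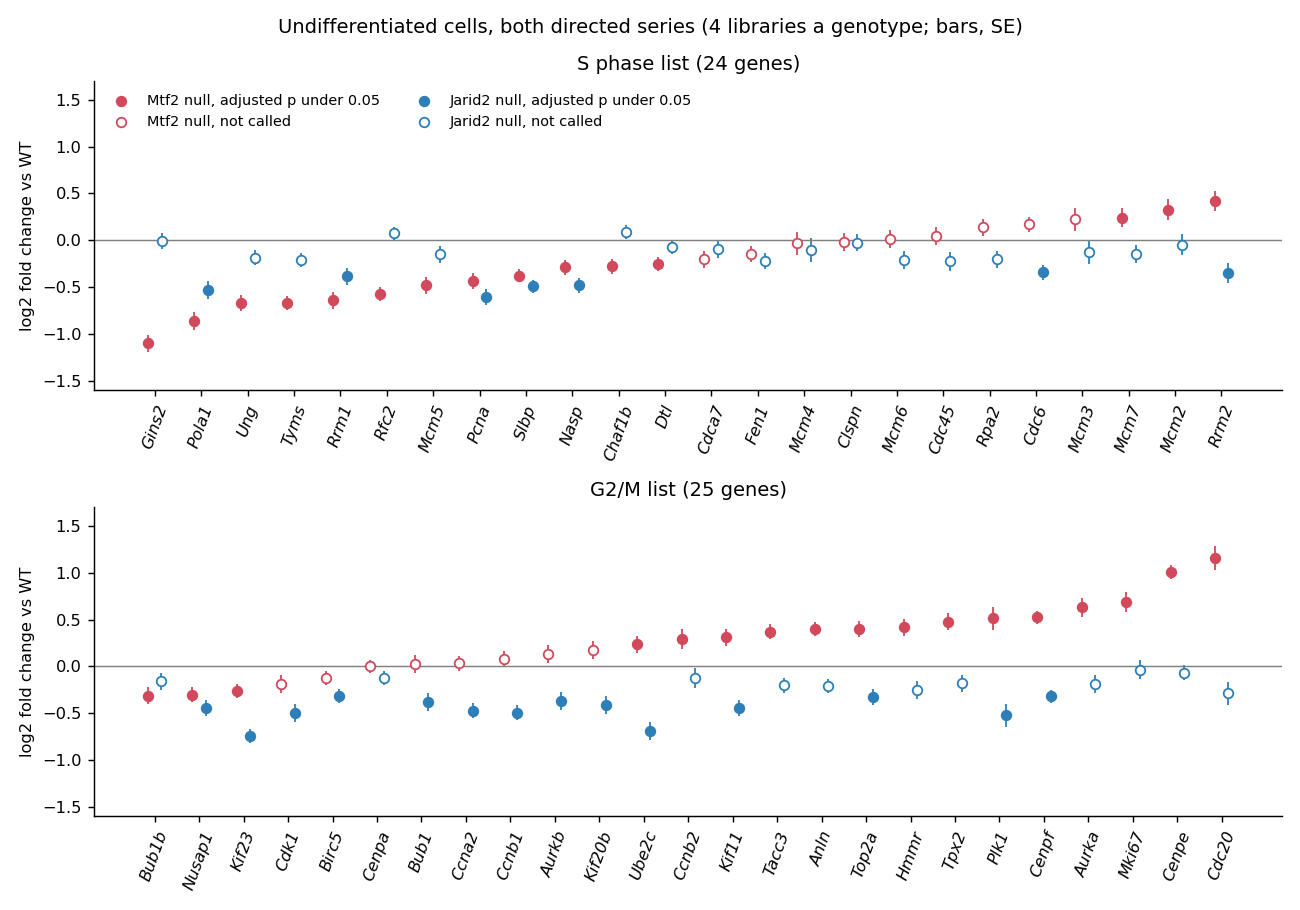
Log2 fold change against WT in undifferentiated monolayer cells (vertical axes) for each of the 49 members (horizontal axes). The S genes and the G2/M genes have 1 panel each, with both null genotypes in every panel. Bars are 1 standard error, and filled points are members called at an adjusted p under 0.05. Gins2 (-1.10) and Cdc20 (1.16) are the ends of the Mtf2 null range, and every G2/M point of Jarid2 null lies below 0.

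Among the fork genes, Gins2 had 62.4, 62.2, 52.4 and 61.9 CPM in WT and 25.2, 30.9, 26.8 and 28.6 in Mtf2 null, without overlap (log2 fold change -1.10 ± 0.09 SE, edgeR adjusted p = 9.34e-08). Pola1 had 191, 243, 202 and 257 CPM in WT and 133, 119, 122 and 119 in Mtf2 null (-0.86 ± 0.10, edgeR adjusted p = 2.74e-06). Ung fell by 0.67 on the log2 scale (50.5 to 61.1 CPM in WT, 34.5 to 36.9 in Mtf2 null). Pcna fell by 0.44 (282 to 324 against 208 to 235 CPM), though Pcna, Tyms, Nasp, Ccnb1 and Ccnb2 have annotated pseudogene copies that could share reads with them. The S genes that rose were Rrm2, the small subunit of ribonucleotide reductase (171 to 233 against 262 to 276 CPM, 0.42 ± 0.11, edgeR adjusted p = 0.00387), and the helicase subunits Mcm2 (0.32 ± 0.11) and Mcm7 (0.24 ± 0.10). WT values of Rrm2, Mcm2 and Mki67 fell into a higher pair (replicate 1 of each series) and a lower pair (replicate 2).

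Cdc20, the activator of the anaphase-promoting complex, had 152, 112, 149 and 106 CPM in WT and 278, 327, 259 and 298 in Mtf2 null, the largest rise of the members (1.16 ± 0.13, edgeR adjusted p = 1.74e-06). Cenpe, a kinetochore motor, had 129, 125, 137 and 131 CPM in WT and 280, 243, 270 and 256 in Mtf2 null (1.01 ± 0.08, edgeR adjusted p = 4.58e-08). Mki67 rose by 0.69 (224 to 302 against 402 to 456 CPM) and Top2a by 0.40 (747 to 770 against 972 to 1062 CPM), also without overlap. The G2/M genes that fell were Bub1b (-0.31 ± 0.09), Nusap1 (-0.30 ± 0.08) and Kif23 (-0.26 ± 0.07). Ccnb1 (0.08 ± 0.08) and Cdk1 (-0.18 ± 0.10) did not pass the test. Related genes outside the 49 were counted from other lists: of 45 further replication genes 8 rose and 24 fell, of 49 further mitotic genes 26 rose and 7 fell, and of 19 E2F, RB and MuvB genes 10 rose and 6 fell. They include Dbf4, the activator of CDC7 kinase (1.15 ± 0.08), Gins3 (-0.94 ± 0.08), Pole2 (-0.97 ± 0.09), E2f2 (-1.09 ± 0.08), and Mybl2, which encodes B-MYB (0.93 ± 0.11).

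In undifferentiated cells members of both lists were lower in Jarid2 null than in WT. Of 24 S genes 7 fell and 0 rose (median -0.19), and of 25 G2/M genes 14 fell and 0 rose (median -0.32), where 10.9% of all genes were called higher and 8.74% lower with a median of -0.011. Within 1 series 4 (mesoderm) and 5 (endoderm) S genes and 3 and 8 G2/M genes fell and 0 rose. Shares over all genes were again not taken for 1 series. All 25 G2/M genes had an estimate below 0. Kif23, a motor of cytokinesis, had 107, 102, 110 and 98.8 CPM in WT and 61.3, 66.6, 62.3 and 60.5 in Jarid2 null (-0.74 ± 0.07, edgeR adjusted p = 1.16e-05). Ube2c, the ubiquitin-conjugating enzyme of the anaphase-promoting complex, had 106 to 131 CPM in WT and 67.0 to 85.0 in Jarid2 null (-0.69 ± 0.09). Plk1 fell by 0.52, Ccnb1 by 0.49, Cdk1 by 0.49 and Top2a by 0.33. In each of these 6 genes every Jarid2 null library lay below every WT library. These genes were picked for the size of their change or are named in each comparison. How many of all genes separate in this way was not counted, and the 4 libraries may come from fewer cultures. Of the S genes, Pcna had 288, 309, 282 and 324 CPM in WT and 214, 178, 215 and 185 in Jarid2 null (-0.60 ± 0.09, edgeR adjusted p = 0.000278), Pola1 fell by 0.53, Slbp by 0.49, Rrm2 by 0.35 and Cdc6 by 0.34. Mki67 (-0.03 ± 0.11), Cenpe (-0.07 ± 0.08) and Mcm2 (-0.04 ± 0.11) did not pass. Of the further genes 10 of 45 replication genes and 15 of 49 mitotic genes fell and none rose, and of the 19 regulators 1 rose, Mybl2 (0.34 ± 0.11), and 2 fell, E2f2 (-0.65 ± 0.08) and E2f3 (-0.60 ± 0.08). Both genotypes were compared with the same WT libraries.

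Members already moved 5 h after the start of induction in WT. In the mesoderm series 16 of 24 S genes rose and 1 fell (21.1% of all 18361 genes were called higher and 15.5% lower), and 9 of 25 G2/M genes rose and 5 fell. In the endoderm series 12 S genes rose and 3 fell (17.8% and 12.4% of 19261 genes), and 8 G2/M genes rose and 6 fell. Both series share Activin A, CHIR99021 and FGF2 until 24 h. Cdc6, the helicase loader, had 46.7 and 41.1 CPM undifferentiated and 85.7 and 91.3 at 5 h in the mesoderm series (1.01 ± 0.10, edgeR adjusted p = 1.13e-06) and rose by 0.65 in the endoderm series. Ung (0.85), Rpa2 (0.84), Mcm2 (0.61) and Rrm2 (0.39) rose in the mesoderm series, and Mcm4 (0.63), Clspn (0.63), Mcm2 (0.40) and Rrm2 (0.38) in the endoderm series. Pola1 fell in both (-0.78 and -0.61), and Pcna fell in the endoderm series (-0.32 ± 0.11). G2/M genes went both ways: Aurka rose in both (1.01 and 0.80), as did Cdc20 (0.84 and 0.51) and Mki67 (0.52 and 0.46), while Hmmr (-0.83 and -0.89) and Nusap1 (-0.77 and -0.71) fell. Without WT undifferentiated replicate 2 the members called numbered 17 instead of 31 in the mesoderm series and 11 instead of 29 in the endoderm series, where 15 and 16 were called without replicate 1 or 2 of 5 h.

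From 5 to 24 h the members fell. In the mesoderm series 18 S and 14 G2/M genes fell and 0 rose (15.1% of all genes were called higher and 11.5% lower), and in the endoderm series 13 S and 10 G2/M genes fell and 0 rose (9.89% and 8.58%). Ung had 108 and 107 CPM at 5 h and 52.3 and 52 at 24 h in the mesoderm series (-1.04 ± 0.09, edgeR adjusted p = 1.05e-07) and fell by 0.92 in the endoderm series. Cdc6 went back to 47.2 and 49.7 CPM (-0.87), Mcm2 fell by 0.73, and Aurka, a kinase of spindle poles, by 0.83. Mcm2, Cdc6, Rrm2, Aurka, Cdc20 and Cdk1 fell in both series, whereas Top2a (-0.14 and -0.04), Pcna (-0.28 and -0.17) and Ccnb1 (-0.33 and -0.24) passed in neither. Leaving out WT 24 h replicate 2 left 20 of 32 calls in the mesoderm series, and leaving out any of the 4 libraries left 9 to 13 of 23 in the endoderm series, 9 of them without WT 24 h replicate 2.

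From 24 to 48 h fewer members moved. In the mesoderm series 5 S and 4 G2/M genes fell (9.53% higher and 12.5% lower over all genes), and in the endoderm series 0 S genes passed, with 6 at an unadjusted p under 0.05 and 1 by DESeq2, while 6 G2/M genes fell and 1 rose (10.1% and 9.43%). Gins2 had 67.0 and 64.5 CPM at 24 h and 29.7 and 33.6 at 48 h in the mesoderm series (-1.06 ± 0.12, edgeR adjusted p = 1.63e-06), and 54.3 and 52.8 against 54.7 and 46.4 in the endoderm series. Plk1 fell in both (-0.51 ± 0.16 and -0.52 ± 0.17). In the mesoderm series the 9 calls numbered 1 without WT 24 h replicate 1 or 2 and 2 without WT 48 h replicate 2. In the endoderm series the 7 calls numbered 0 without WT 48 h replicate 2, 15 without WT 48 h replicate 1, and 3 and 1 without WT 24 h replicate 1 and 2.

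**Figure D5:**
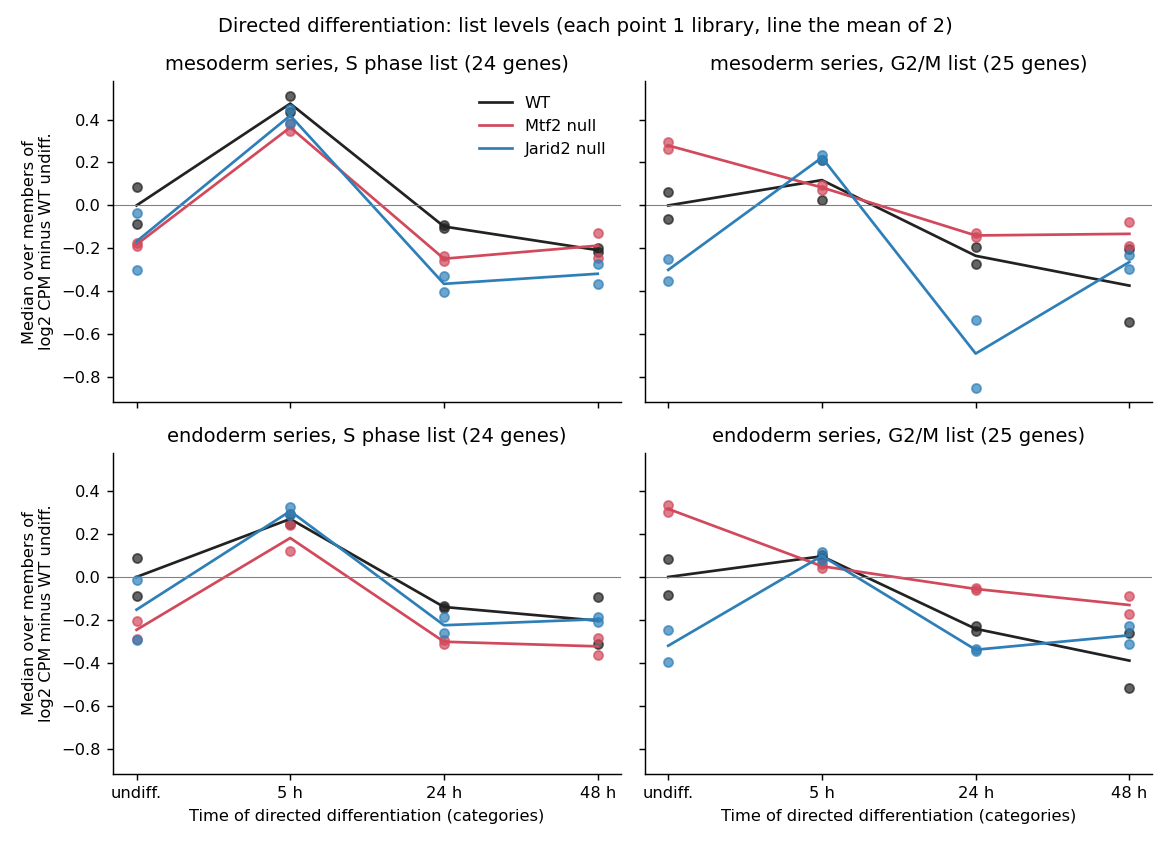
Median over members of the log2 CPM difference from the mean of the undifferentiated WT libraries (vertical axes) for the S and G2/M lists against hours of induction (horizontal axes), 1 point for each library, coloured by genotype, in both series. The WT S medians are 0.51 and 0.44 at 5 h in the mesoderm series and -0.09 and -0.11 at 24 h, and the Jarid2 null G2/M medians are -0.85 and -0.53 at 24 h in the mesoderm series.

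Against WT of the same time, Mtf2 null cells kept low values of a few S genes. At 5 h 1 S gene was called higher and 5 lower, and 1 G2/M gene higher and 2 lower, in the mesoderm series (14.0% and 14.7% of all genes), and 1 and 5 S genes and 3 and 1 G2/M genes in the endoderm series (15.7% and 15.3%). At 24 h the counts were 1 and 4, and 2 and 0, in the mesoderm series (11.2% and 11.7%), and 0 and 5, and 2 and 1, in the endoderm series (13.8% and 12.4%). The lower S counts (4 or 5 of 24) lie near the shares over all genes. Mcm5, a helicase subunit, had 724 and 729 CPM in WT and 487 and 491 in Mtf2 null at 5 h of the mesoderm series (-0.57 ± 0.12), and fell short of WT by 0.66 in the endoderm series and by 0.64 and 0.65 at 24 h. Gins2 was lower at each time and in both series, by 0.34 to 0.94 at 5 and 24 h. Tyms (thymidylate synthase) was lower in the mesoderm series at 5 h (-0.54) and 24 h (-0.70). Bub1b, a spindle checkpoint kinase, was lower at 5 h (-0.42 and -0.65), and Cenpe was higher (0.39 and 0.32). Without any 1 of the 4 libraries compared the members called at 5 h were 4 to 6 of 9 (mesoderm) and 3 to 7 of 10 (endoderm), and at 24 h 3 of 7 and 3 to 5 of 8. The lowest endoderm counts were those without WT replicate 1 at 5 h and WT replicate 2 at 24 h.

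At 48 h the G2/M genes of Mtf2 null cells were higher again. In the endoderm series 13 G2/M genes were called higher and 1 lower (median 0.39), and 3 S genes higher and 6 lower, where 20.4% of all genes were higher and 17.5% lower with a median of -0.017. In the mesoderm series 9 G2/M genes were higher and 1 lower (median 0.23), and 3 S genes higher and 2 lower (15.2% and 12.7%). Plk1, which drives mitotic entry and spindle assembly, had 69.1 and 45.7 CPM in WT and 112 and 124 in Mtf2 null in the endoderm series (1.04 ± 0.17, edgeR adjusted p = 3.89e-05) and 69.3 and 55.4 against 105 and 93.2 in the mesoderm series (0.66 ± 0.16). Aurka had 60.5 and 44 against 107 and 106 CPM in the endoderm series (1.02 ± 0.14) and 58.6 and 51.4 against 88.9 and 85.3 in the mesoderm series (0.66 ± 0.12). Cdc20 (0.94 and 0.67), Mki67 (0.59 and 0.74) and the S gene Cdc6 (0.39 and 0.52) were also higher in the mesoderm and endoderm series, and Gins2 was lower (-0.39 and -0.92). Plk1 and Aurka were lower in WT 48 h replicate 2 than in replicate 1, and without it 7 of 15 members were called in the mesoderm series, with 8 and 9 without Mtf2 null replicate 1 or 2. The lineage markers also differed at 48 h, with lateral mesoderm markers (Hand1, Foxf1, Kdr, Gata6) at 1.41 and 2.08 CPM in WT and 52.7 and 64.2 in Mtf2 null in the endoderm series, and their part was not tested.

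Jarid2 null cells differed from WT at 24 h of the mesoderm series, where 11 S and 15 G2/M genes were called lower and 0 higher (medians -0.31 and -0.37), against 8.12% of all genes called higher and 15.1% lower with a median of -0.039. Ube2c had 99.1 and 98.0 CPM in WT and 33.6 and 51.9 in Jarid2 null (-1.21 ± 0.17, edgeR adjusted p = 9.15e-05). Cdk1, the kinase of mitotic entry, had 111 and 113 CPM in WT and 53 and 72.2 in Jarid2 null (-0.84 ± 0.14). Aurkb was lower by a log2 fold change of -0.74 ± 0.13, and Pcna had 207 and 202 against 115 and 149 (-0.63 ± 0.15). In Ube2c, Cdk1 and Pcna replicate 1 of Jarid2 null was the lower, and without it 5 of 26 members were called, with 11 and 13 without WT replicate 1 or 2. Mki67 (-0.06 ± 0.13) and Top2a (-0.18 ± 0.12) did not pass. In the related lists 10 replication genes were lower and 9 higher of 45, and 20 of 49 mitotic genes were lower and 0 higher, among them Tubb4b (-1.11 ± 0.14) and Cdc25b, the CDK1-activating phosphatase (-1.04 ± 0.14).

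In the other Jarid2 null comparisons few members or none passed. At 24 h of the endoderm series 0 members were called by edgeR or DESeq2, 9 had an unadjusted p under 0.05 and the G2/M median was -0.17 (0.234% of all genes were called higher and 0.0986% lower). Whether the 24 h effect differs between the series was not tested, since the tables are normalised apart. At 5 h 0 members were called in the mesoderm series (0.125% and 0.0871%), with 3 at an unadjusted p under 0.05 and 0 by DESeq2, and 0 in the endoderm series (0.0831% and 0.0675%), with 2 and 1. At 48 h 0 were called in the mesoderm series (1.50% and 0.713%), with 9 at an unadjusted p under 0.05 and 1 by DESeq2. At 48 h of the endoderm series 3 G2/M genes were higher (3.72% and 3.50%), Plk1 (0.60 ± 0.17), Aurkb (0.53 ± 0.14) and Cenpa, the histone of centromeres (0.41 ± 0.09). Without WT 48 h replicate 2 or Jarid2 null replicate 2 these calls numbered 0, without Jarid2 null replicate 1 2, and without WT replicate 1 8.

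Interaction contrasts asked whether a genotype difference at 48 h departed from the undifferentiated one in the same series. For Mtf2 null in the mesoderm series 8 S genes moved up and 0 down, and 1 G2/M gene up and 2 down (7.95% of all genes up and 10.2% down). The largest were Ung (0.88 ± 0.13), Gins2 (0.77 ± 0.17) and Chaf1b (0.77 ± 0.14), S genes below WT when undifferentiated, and Cenpe (-0.61 ± 0.16), far above WT when undifferentiated. In the endoderm series 4 S genes moved up and 5 G2/M genes up and 2 down (11.3% and 10.8%), led by Ung (0.98 ± 0.16), Kif23 (0.82 ± 0.16) and Aurkb (0.65 ± 0.20). For Jarid2 null 7 G2/M genes moved up in the endoderm series (2.31% and 3.31%), led by Plk1 (1.12 ± 0.23), Aurkb (0.89 ± 0.21) and Ube2c (0.86 ± 0.18), and 1, Kif23, in the mesoderm series (1.00 ± 0.15; 0.664% and 1.11%). No S gene passed for Jarid2 null, with 6 (mesoderm) and 8 (endoderm) at an unadjusted p under 0.05 and 2 and 1 by DESeq2. The 11 Mtf2 null calls of the mesoderm series numbered 5 without Mtf2 null undifferentiated replicate 1 and 7 without Mtf2 null 48 h replicate 2, and the 11 of the endoderm series numbered 5 without Mtf2 null undifferentiated replicate 1, 6 and 7 without Mtf2 null 48 h replicate 1 and 2, and 6 without WT 48 h replicate 2. The 7 Jarid2 null calls of the endoderm series numbered 1 without WT 48 h replicate 2, 4 without Jarid2 null 48 h replicate 2, 13 without WT 48 h replicate 1 and 12 without WT undifferentiated replicate 2, and the 1 call of the mesoderm series became 8 and 6 without WT 48 h replicate 1 and WT undifferentiated replicate 2.

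A stricter rule, a change of over 1 on the log2 scale with an adjusted p under 0.001, left few members in the genotype comparisons, the WT time steps and the interactions. Of these 24 directed comparisons 6 had any, with 10 calls in all: Ube2c in Jarid2 null at 24 h of the mesoderm series (1.97% of all genes), Aurka and Cdc6 in WT to 5 h (4.13%), Ung from 5 to 24 h (4.41%), Gins2 from 24 to 48 h (4.16%), Aurka and Plk1 in Mtf2 null at 48 h of the endoderm series (10.5%), and Cdc20, Cenpe and Gins2 in undifferentiated Mtf2 null cells (14.5%). In 5 of the 6 the share of the 49 members was below that of all genes, and Ube2c, 1 of 49, is close to it. The steps in time within the null cells were looked at after the values were seen, and 11 of the 12 had 0 to 3 such members. The other was the step from 5 to 24 h of Jarid2 null in the mesoderm series, with 4 S and 10 G2/M genes (10.4% of all genes by this rule). At an adjusted p under 0.05 22 S and 22 G2/M genes fell in that step and 0 rose (edgeR; medians -0.75 and -0.73), where 19.0% of all genes were called higher and 21.9% lower with a median of 0. Leaving out each of its 4 libraries gave 41 to 43 calls in place of 44. Cdk1 had 169 and 165 CPM at 5 h and 53 and 72.2 at 24 h in Jarid2 null (-1.42 ± 0.14, edgeR adjusted p = 2.74e-07). Ube2c fell by 1.59, Plk1 by 1.31, Aurka by 1.29 and Rrm2 by 1.13. Whether this step differs from that of WT, where 18 S and 14 G2/M genes fell, was not tested.

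In bulk EBs the lines labelled null were set against their matched WT lines over the 4 days (limma, log2 CPM, day as a block). Cdc6 was called lower in all 3, with 65.7, 71, 39.3 and 33.2 CPM at days 0, 2, 4 and 7 in the line labelled Mtf2 null against 99.0, 125, 73.0 and 106 in Pcl1-3 WT (-0.99 ± 0.20, limma adjusted p = 0.0323). It had 54.4, 95.1, 43.2 and 37.9 in Jarid2 null against 93.8, 112, 62.7 and 87.0 in JM8 (-0.68 ± 0.17, limma adjusted p = 0.0408). It had 29.3, 64.6, 42.7 and 42.1 in Eed null against 58.7, 88.7, 77.5 and 63.1 in J1 (-0.72 ± 0.13, limma adjusted p = 0.0291). Cdc6 was lower than the matched WT on each of the 12 line days, and the 3 comparisons share no samples. Its calls came from few members in all: with label Mtf2 null 2 S genes were lower (Cdc6, Chaf1b) and 1 G2/M gene higher (Anln; 4.83% of 15842 genes called higher, 2.68% lower), with label Jarid2 null 5 S and 6 G2/M genes were lower (6.55% and 6.86%), and with label Eed null 2 S and 3 G2/M genes were lower and 1 higher (4.48% and 4.25%). In Jarid2 null the largest were Kif20b (-0.99 ± 0.11), Cenpf (-0.96 ± 0.13), Top2a (-0.96 ± 0.14) and Mcm6 (-0.81 ± 0.15), and in Eed null Aurkb (-0.90 ± 0.12) and Hmmr (-0.82 ± 0.14) with Ccna2 higher (0.67 ± 0.08). Top2a was lower in all 3 (1194, 1269, 880 and 800 CPM against 2057, 1570, 1615 and 1514 with label Mtf2 null), though it passed in Jarid2 null only. These calls do not hold without a day: without day 4 or day 7 1 of 11 was called in Jarid2 null and 0 of 3 in Mtf2 null (also 0 without day 2), and without any day 0 of 6 in Eed null. In bulk EBs fewer cycling cells and less of these messengers in each cell cannot be told apart.

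Over time the WT lines had 3 S genes called higher from day 0 to 2 and 14 called lower from day 2 to 4. From day 0 to 2, where the median log2 difference of the S genes was 0.27 in Pcl1-3 WT, 0.05 in JM8 and 0.51 in J1, the 3 S genes that rose were Pcna (0.93 ± 0.20), Tyms (0.83 ± 0.20) and Fen1 (0.77 ± 0.15), and 1 G2/M gene fell, Aurkb (-0.49 ± 0.13; 5.79% of all genes called higher, 4.51% lower). From day 2 to 4 14 S genes fell (median -0.50) and 2 G2/M genes fell (median -0.14; 12.2% and 12.7%). Pola1 had 213, 253 and 259 CPM at day 2 and 120, 146 and 91.6 at day 4 in Pcl1-3 WT, JM8 and J1 (-1.04 ± 0.18, limma adjusted p = 0.00497), and Rrm2 298, 367 and 290 against 161, 180 and 144 (-0.97 ± 0.17, limma adjusted p = 0.00455). Pcna went from 230, 335 and 168 CPM at day 0 to 512, 585 and 300 at day 2 and 253, 330 and 222 at day 4. In each of the 3 lines these S genes were thus lower at day 4 than at day 2. Birc5 (-0.59 ± 0.14) and Ccna2 (-0.47 ± 0.13) were the G2/M genes that fell. From day 4 to 7 0 members were called, with 2 at an unadjusted p under 0.05 and 0 by edgeR on recovered reads (0.139% and 0.0379%). Without line JM8 the 16 calls from day 2 to 4 numbered 0, without J1 10 and without Pcl1-3 WT 9, and without any line the 4 calls from day 0 to 2 numbered 0.

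Undifferentiated cells were measured both as single cells and in bulk. For Jarid2 null, 20 of 24 S genes and 17 of 25 G2/M genes had the same sign in the single-cell ratio at day 0 and in the monolayer fold change, and 6 of the 7 S and 9 of the 14 G2/M genes called in bulk. All 25 of these G2/M genes were below 0 in bulk, and over all genes 42.1% were above WT in the single cells at day 0, so the shared signs are given as values only. For Mtf2 null 15 of 24 S genes had the same sign, and 12 of the 15 called in bulk. The G2/M genes of Mtf2 null did not match, with a median log2 ratio of -0.27 in single cells and 0.29 in bulk, and 9 of 25 with the same sign (5 of the 17 called in bulk). Cdc20 (668 against 495 UMI CPM) and Cenpe (224 against 164) were higher than WT in both measurements, while Top2a (1127 against 1352) and Plk1 (307 against 433) were lower in single cells and rose in bulk. Single-cell libraries count the ends of polyadenylated messengers and the bulk libraries whole RNA without ribosomal RNA, and the cause of the difference was not tested.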

How the data were processed

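Single-cell libraries (SORT-seq) were analysed from UMI counts that the authors deposited for the cells they kept, with their clusters, and counts were summed for each library without a test across cells. For the directed series the authors deposited estimated counts per gene from Salmon (GRCm38), of which 74.9% and 73.1% were whole, and these were rounded. For bulk EBs the deposited signal is read counts divided by DESeq2 size factors, and repeat columns of a sample were averaged for the limma test. Whole reads were recovered in 45 of 46 columns (100.0% of values within 0.02). These reads were used for an edgeR alternative only. Directed counts were tested with edgeR 4.0.16 (R 4.3.3; quasi-likelihood test, TMM, filterByExpr with counts of 10 and 15), over all genes that passed. EB values were tested with limma 3.58.1 on log2 CPM (prior count 2, at least 1 CPM in 4 of 24 samples), with day or line as a block. Calls were made at 0.05 after Benjamini-Hochberg adjustment. Both procedures were tested on simulated data. DESeq2 1.42.0, other normalisations, no filter, a replicate block and leaving out each library were alternatives. Cells were thinned to 2500 UMIs with seed 7. Poisson intervals (95%) cover counting error only.

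In each comparison the text names Mcm2, Pcna, Rrm2, Cdc6, Mki67, Top2a, Ccnb1, Cdk1 and Cdc20 where they matter, and up to 3 called members of each list and direction with the largest change; any further member was picked with its values in view. The members and lists were chosen with earlier results of these data known. All 88 samples had a group, and the authors' own fold changes were not used.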

Additional observations from a re-analysis of the deposited data

Results flagged for a closer look

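In undifferentiated WT monolayer cells 1 of the 4 Top2a values stood apart, with a gap to its nearest neighbour of 0.919 of the group's range, although the 4 values spanned 747 to 770 CPM. Of 27 groups of values tested this way 1 stood apart, and chance gives about 1 in 20.

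The genotype difference at 48 h departed from the undifferentiated one for 11 members in Mtf2 null of the mesoderm series, 1 in Jarid2 null of the mesoderm series, 11 in Mtf2 null of the endoderm series and 7 in Jarid2 null of the endoderm series (interaction contrasts in edgeR, adjusted p under 0.05). In Mtf2 null of the mesoderm series the log2 change of the difference was 0.88 for Ung, 0.77 for Chaf1b, 0.77 for Gins2 and 0.62 for Kif23, and -0.50 for Anln and -0.61 for Cenpe. In Jarid2 null of the mesoderm series it was 1.00 for Kif23. In Mtf2 null of the endoderm series it was 0.98 for Ung, 0.61 for Rrm1, 0.52 for Fen1, 0.82 for Kif23, 0.65 for Aurkb and 0.64 for Cdk1, and -0.42 for Cenpe and -0.46 for Top2a. In Jarid2 null of the endoderm series it was 1.12 for Plk1, 0.89 for Aurkb, 0.86 for Ube2c and 0.59 for Cdk1.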

How the results depend on the processing

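No fold change of a named member that passed the test changed sign under an alternative that was run. Signs of the other members were not checked. Of 3506 values of named members under an alternative, 104 changed sign where neither value passed. Single-cell list ratios to WT left their counting interval in 9 of 24 cases with cells weighted equally, 12 of 24 after thinning and 10 of 24 without mitochondrial and ribosomal protein genes, and the G2/M ratio of Eed null at day 10 crossed 1 (0.998, against 1.01 and 1.13 by the first and second). Without the filter on low counts the members called were 1 instead of 0 (Jarid2 null at 5 h, mesoderm), 7 instead of 11 and 3 instead of 1 (Mtf2 null and Jarid2 null interactions, mesoderm), and 5 instead of 3 (Jarid2 null at 48 h, endoderm). In EBs they were 0 instead of 3, 11 and 6 (lines labelled Mtf2, Jarid2 and Eed null), 2 instead of 4 (day 0 to 2) and 6 instead of 16 (day 2 to 4). DESeq2 called 1 instead of 0 (Jarid2 null at 48 h, mesoderm), 5 instead of 1 (Jarid2 null interaction, mesoderm), 1 instead of 0 (Jarid2 null at 5 h, endoderm) and 6 instead of 3 (Jarid2 null at 48 h, endoderm). Within a series replicate numbers did not pair most groups (median correlation of deviations 0.007 and 0.010 over 66 pairs of groups in each series, highest 0.27 and 0.20). This check did not cover pairing between the series, where undifferentiated libraries of the same number resembled each other. A replicate block moved no count of both lists together by over 1.5 times, although 1 count of a single list moved by more. With it 24 instead of 26 members were called for Jarid2 null at 24 h of the mesoderm series. The counts were 11 instead of 10 for Mtf2 null at 5 h of the endoderm series and 22 instead of 21 for undifferentiated Jarid2 null. Single libraries limited the counts most. Leaving out each in turn gave 25 to 32 members (of 32, undifferentiated Mtf2 null) and 19 to 23 (of 21, Jarid2 null). In the mesoderm series it gave 4 to 6, 3 and 7 to 18 for Mtf2 null at 5, 24 and 48 h, 0, 5 to 20 and 0 to 2 for Jarid2 null, 17 to 34, 20 to 25 and 1 to 9 for the WT steps, and 5 to 12 and 1 to 8 for the interactions. In the endoderm series it gave 3 to 7, 3 to 5 and 17 to 24, then 0, 0 and 0 to 8, then 11 to 33, 9 to 13 and 0 to 15, and 5 to 14 and 1 to 13. In EBs it gave 0 to 3, 1 to 8 and 0 for the lines in that order, and 0, 0 to 10 and 0 for the steps in time. The causes of these shifts were not tested.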
